A study of Mus musculus with 8 samples.

Results

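Thalamic gene expression was compared between 2 mice that had received the neurotoxin MPTP together with needling at leg and foot acupoints and 2 mice that had received saline. These 4 arrays are the members of the comparison, taken by their titles from the 8 of the series, and the genes are the 23410 of 35557 probe sets (the array's groups of probes for a transcript) that carry a gene symbol. All mice were male C57BL/6, an inbred laboratory strain, 6 weeks old at the start and adult at sampling. Control mice had saline injected into the peritoneum once a day for 4 weeks, and the labels give no needling for them. Acupoint mice had MPTP injected by the same route at 20 mg/kg every 24 hr for 4 weeks. They were also held by hand and needled on both sides at GB34, a point of the lower leg (3 mm deep), and LR3, a point of the foot (1 mm deep), in 14 sessions 48 hr apart. Of the other 4 mice, 2 had MPTP alone and 2 had MPTP with needling of the hips, 3 mm deep, on the same schedule. Their values stand beside the comparison where they bear on it. RNA came from the thalamic tissue of both sides, and the titles number separate mice. No group had needling without MPTP, so within this comparison the effects of MPTP, needling and restraint cannot be told apart.

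MPTP is converted in the brain to a toxic ion that the dopamine transporter carries into dopamine neurons, and it is used to model parkinsonism. The cell bodies of those neurons lie in the ventral midbrain, below and behind the thalamus, and not in the thalamus itself, whose main cells are glutamatergic relay neurons that project to the cortex. The thalamus also borders the habenula above, the hypothalamus below and the ventricles, where the choroid plexus makes cerebrospinal fluid. A dissected block of thalamus can hold some of each of these neighbours.

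All values are log2 levels after RMA, a procedure that corrects background, brings the arrays to a common distribution and gives 1 value per probe set. A difference of 1 is 2-fold. The comparison was chosen partly because the 2 mice of each group agree closely, so the p-values take as their error a spread that was part of the choice, and they may be too small. The control pair correlated at r = 0.995 and the acupoint pair at 0.993 over the tested probe sets, against 0.981 to 0.984 between a control and an acupoint array, 0.908 within the MPTP-alone pair and 0.936 within the hip pair. MPTP-alone mouse 1 and hip mouse 1 stood apart from the rest (r = 0.982 with each other, 0.905 to 0.936 with the other 6 arrays), and the 4-array test against control does not use them. The test was limma on these 4 arrays with Benjamini-Hochberg adjustment over 15791 probe sets (13524 genes) that had a symbol and passed a brightness minimum of 5.63, and a gene is said to rise or fall where its adjusted p was under 0.05. An exact test of 2 against 2 arrays cannot go below p = 0.333 and was not used. Markers of the labelled tissue were measured on all 4 arrays. The 19 tested genes that mark relay neurons had a mean level of 8.86 and 8.97 in controls and 9.75 and 9.75 in acupoint mice, and of them Slc17a6, the glutamate transporter of relay neurons' synaptic vesicles, and Prkcd stood between 10.74 and 11.94.

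In all, 1365 probe sets passed (8.64%), of which 842 were higher and 523 lower in acupoint mice. With 1 probe set a gene, 734 genes rose (5.43% of genes tested) and 482 fell (3.56%), and the median difference over all genes was -0.00. Of these, 57 rose and 39 fell by at least 2-fold. These counts rest on the small spread of these 4 arrays, for which the comparison was chosen. The shares of 5.43% and 3.56% are the background for the rises and falls counted in each list below. When the spread was shared with the MPTP-alone and hip arrays, limma over all 8 arrays called 0 probe sets in the same contrast (888 at an unadjusted p under 0.05, smallest adjusted p = 0.137), while the differences themselves stay as given. Leaving out control mouse 1, control mouse 2 or acupoint mouse 2 left 170, 343 or 717 probe sets past the threshold, each time with the mouse that stays alone in its group assumed to vary like the other group. All 1365 kept their direction in each of these fits. That was fixed in advance for the 8-array fit, which returns the same differences, and wherever the 2 groups do not overlap. It is therefore no test of the calls. Of the tested probe sets 148 reached the brightness minimum only through the 2 arrays of the higher group, so that these had to differ, and 29 of them are among the 1365.

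**Figure D1:**
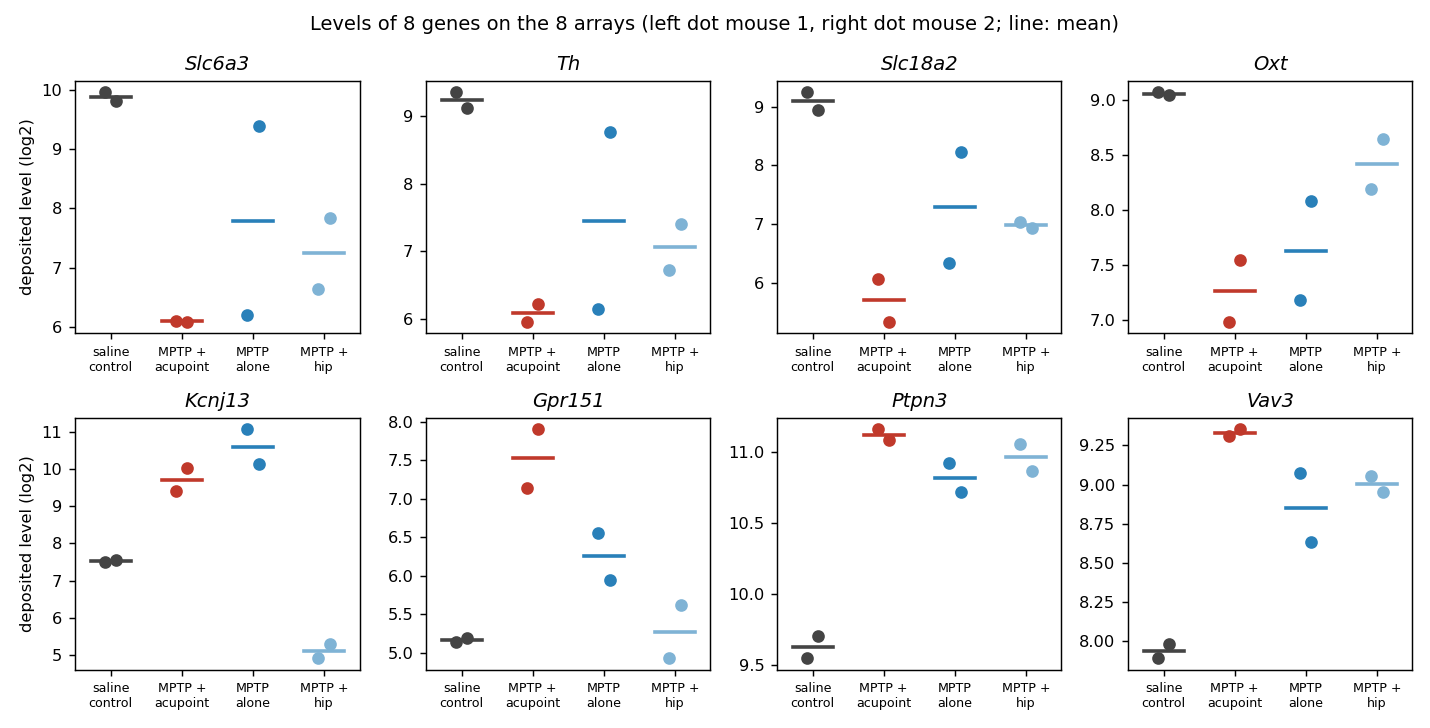
Deposited log2 level (vertical axis, a separate scale for each panel) of 8 genes on the 8 arrays, by group. Each dot is 1 mouse, the left dot mouse 1 and the right dot mouse 2, and the line is the group mean; in all 8 genes the 2 acupoint dots lie apart from the 2 control dots, and Slc6a3 stands at 6.10 and 6.09 in acupoint mice against 9.96 and 9.83 in controls.

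The largest differences of the comparison were falls of genes that define dopamine neurons. Slc6a3, the dopamine transporter, was 13.9-fold lower in acupoint mice than in controls. Slc18a2, which loads dopamine and other monoamines into vesicles, was 10.5-fold lower and Th, whose enzyme limits the rate at which dopamine is made, 8.74-fold lower. In bulk tissue, fewer cells of a type and less RNA per cell cannot be told apart. Of the 21 genes of the dopaminergic list, 16 were tested, 4 lay below the brightness minimum (Gch1, En1, En2 and Foxa1) and 1, Lmx1a, had no probe set of its own. Of the 16, 11 fell and none rose, and the median difference was -1.01.

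The starts of the Th and Slc6a3 genes are shown because these genes were among the largest falls. Both are 300 bases, from 250 before to 50 after the start, from RefSeq on GRCm38.p6. The Th sequence is chr7:142899946-142900245 on the minus strand, and the Slc6a3 sequence is chr13:73536497-73536796 on the plus strand. Capitals mark motifs found by a search of both strands for 4 of them: the cAMP response element TGACGTCA, the nuclear receptor element AAAGGTCA, the E-box CACGTG and the TATA box TATAAA.
Th: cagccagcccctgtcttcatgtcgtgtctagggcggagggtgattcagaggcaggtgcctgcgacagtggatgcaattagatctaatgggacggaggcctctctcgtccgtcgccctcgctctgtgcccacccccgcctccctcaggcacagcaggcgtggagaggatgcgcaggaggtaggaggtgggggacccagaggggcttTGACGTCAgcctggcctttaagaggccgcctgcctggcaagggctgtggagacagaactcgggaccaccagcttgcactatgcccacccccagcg
Slc6a3: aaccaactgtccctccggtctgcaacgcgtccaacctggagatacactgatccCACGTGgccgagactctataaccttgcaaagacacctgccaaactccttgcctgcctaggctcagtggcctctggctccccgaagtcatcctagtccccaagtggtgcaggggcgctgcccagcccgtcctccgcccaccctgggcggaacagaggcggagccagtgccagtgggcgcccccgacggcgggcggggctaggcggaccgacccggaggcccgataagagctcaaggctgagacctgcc
The Th start holds a cAMP response element that begins 45 bases before the start, a motif that 1.79% of 32851 promoters of this length hold, and the Slc6a3 start an E-box 197 bases before it, which 7.15% hold. Neither holds the nuclear receptor element, which 1.51% of promoters do. These are matches of letters and say nothing of binding in these mice.

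Slc6a3 stood at 9.96 in control mouse 1 and 9.83 in control mouse 2, against 6.10 and 6.09 in the acupoint mice (values of a pair are in the order mouse 1, mouse 2), a difference of -3.80 ± 0.08 (SE; limma adjusted p = 7.98e-05, the smallest of the comparison). Th stood at 9.34 and 9.10 against 5.97 and 6.22 (-3.13 ± 0.12, limma adjusted p = 0.00152). Slc18a2 stood at 9.24 and 8.95 against 6.06 and 5.34 (-3.40 ± 0.23, limma adjusted p = 0.00352). In these 3 genes the 2 groups lie far apart and the acupoint levels sit near the brightness minimum, where RMA compresses differences, so the folds are uncertain in size. Ddc, which makes dopamine from L-DOPA, stood at 8.91 and 8.64 against 7.16 and 7.12 (-1.64 ± 0.10). Chrna6, a nicotinic receptor subunit of dopamine neurons, stood at 7.52 and 7.31 against 5.02 and 5.12 (-2.34 ± 0.10). The acupoint levels of Chrna6 lie below the brightness minimum, so the size of its fall is uncertain.

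The other genes that fell were Slc10a4, a vesicular protein of monoamine and cholinergic neurons (-1.69), Dlk1, a Notch-like ligand (-1.60), gamma-synuclein Sncg (-1.21), the neurotensin receptor Ntsr1 (-0.81), the transcription factor gene Foxa2 (-0.71) and the retinaldehyde dehydrogenase gene Aldh1a1 (-0.43). The members that did not pass include regulators of dopamine neuron identity. Nr4a2 differed by 0.02 with overlapping groups, Pitx3 by -0.31 (limma adjusted p = 0.0667) and Lmx1b by -0.33 (0.160). The GDNF receptor Ret differed by -0.36 (0.0977) and the dopamine receptor Drd2 by -0.73 (0.0949). The 2 groups did not overlap in 15 of the 16 genes, lower in each, against 28.8% of all genes tested.

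The list's count was 6 in place of 11 without control mouse 1 and 9 or 10 without any other mouse. Slc6a3, Slc18a2, Th, Chrna6, Ddc and Dlk1 passed without each of the 4 mice. The list mean stood at 8.31 and 8.19 in controls and 6.82 and 6.86 in acupoint mice. It was 7.16 and 7.84 in mice given MPTP alone and 7.31 and 7.29 in hip-needled mice, so both acupoint mice had the lowest values of the 8. Slc6a3 stood at 6.20 and 9.39 in mice with MPTP alone and 6.64 and 7.83 in hip-needled mice, and Th at 6.15 and 8.75, and at 6.72 and 7.40. MPTP-alone mouse 1 was thus about as low as the acupoint mice and mouse 2 nearer the controls.

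With all 8 arrays, no difference between acupoint mice and either other injected group passed for these genes. In that fit, acupoint minus MPTP alone was -1.70 ± 0.95 (SE) for Slc6a3 and -1.36 ± 0.76 for Th, each with a limma adjusted p of 0.889, and acupoint minus hip was -1.15 ± 0.95 and -0.97 ± 0.76 (0.893). Over all genes these 2 contrasts called 0 probe sets (0% in each), with 216 and 299 at an unadjusted p under 0.05 and smallest adjusted p of 0.889 and 0.0522. With the 6 arrays that leave out MPTP-alone mouse 1 and hip mouse 1, the other groups hold 1 array each. Against MPTP-alone mouse 2 the acupoint mean differed by -3.30 for Slc6a3, -2.66 for Th and -1.75 for Chrna6. Against hip mouse 2 it differed by -1.74 for Slc6a3. MPTP-alone mouse 1, left out here, was about as low as the acupoint mice (Slc6a3 6.20, Th 6.15, Chrna6 5.10). The spread then comes only from the control and acupoint pairs, so these values do not test whether the groups differ. Both contrasts and the comparison with controls share the acupoint arrays, so their values are set side by side only.

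Other neurons of the ventral midbrain and subthalamic area were measured as neighbours of the dopamine cells. Of 10 genes tested, 4 fell and 1 rose (median -0.33). Gata3, a transcription factor gene of midbrain inhibitory neurons, stood at 7.18 and 7.01 in controls and 6.23 and 5.78 in acupoint mice (-1.09 ± 0.15). The other 3 that fell were Sncg, which is on the dopaminergic list too, Barhl2 (-0.52), a homeobox gene, and the peptide gene Ucn (-0.32). Chrna4, a nicotinic receptor subunit, rose by 0.58. None of the 5 passed without control mouse 1 or control mouse 2. There were 3 falls and no rise without acupoint mouse 1, and 2 falls and 1 rise without acupoint mouse 2. Their part in the fall of the dopaminergic list was not tested.

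Markers of thalamic relay neurons rose together. Of 19 genes tested, 17 rose and none fell, with a median difference of 0.83 (1.77-fold). Vav3, a guanine nucleotide exchange factor, had the largest rise, at 7.89 and 7.98 in controls and 9.31 and 9.35 in acupoint mice (1.40 ± 0.07, limma adjusted p = 0.00281). Prkcd, a protein kinase C gene strongly expressed in thalamic relay cells, stood at 10.74 and 10.90 against 11.94 and 11.84 (1.07 ± 0.09, 0.00466). The groups do not overlap in either gene, nor in 18 of the 19, against 30.5% of all genes tested that lay higher without overlap.

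The start of Prkcd is shown as the best known marker of the list. It is chr14:30626159-30626458 on the minus strand (RefSeq, GRCm38.p6), the first of 2 starts in the table, and capitals mark a TATA box motif 244 bases and an E-box 106 bases before the start.
Prkcd: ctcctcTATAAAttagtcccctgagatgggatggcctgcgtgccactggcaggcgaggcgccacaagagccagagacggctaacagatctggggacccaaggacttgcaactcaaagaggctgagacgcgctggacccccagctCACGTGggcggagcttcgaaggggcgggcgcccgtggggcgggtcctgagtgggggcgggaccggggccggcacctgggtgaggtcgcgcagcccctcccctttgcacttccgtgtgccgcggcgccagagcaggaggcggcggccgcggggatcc
The TATA motif lies far from the place, shortly before a start, where such a box acts, and 13.6% of all promoters of this length hold its letters somewhere.

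Plekhg1, another exchange factor gene, rose by 1.27 ± 0.12 (8.92 and 9.25 against 10.38 and 10.32) and Ntng1, a netrin-related adhesion molecule of thalamic axons, by 1.06 ± 0.07 (9.65 and 9.65 against 10.73 and 10.70). Synpo2 (1.04), the growth factor gene Kitl (0.98) and the transcription factor genes Lhx9 (0.97), Shox2 (0.91), Rora (0.80), Tcf7l2 (0.76) and Lef1 (0.71) also rose. Tcf7l2 is the factor that sets the identity of thalamic neurons, and Lhx9 and Shox2 act in their development. Cacna1g, the T-type calcium channel that lets relay neurons fire in bursts, rose by 0.90 ± 0.09 (8.31 and 8.41 against 9.34 and 9.18). Rgs16 (0.83), Adarb1 (0.79), Epha4 (0.76), Zfhx3 (0.51) and Slc17a6 (0.48) complete the 17. The exceptions were the developmental factor gene Gbx2 (0.45, limma adjusted p = 0.0609) and the calcium-binding protein gene Calb2 (0.16, 0.463, groups overlapping).

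The relay list mean stood at 8.86 and 8.97 in controls and 9.75 and 9.75 in acupoint mice, with MPTP-alone mice at 9.52 and 9.42 and hip-needled mice at 9.59 and 9.48. All 6 injected mice were above both controls, and the 2 acupoint mice were the highest. The list medians against control were 0.83 for acupoint, 0.57 for MPTP alone and 0.60 for hip-needled mice, all against the same 2 controls. Prkcd differed between acupoint and MPTP-alone mice by 0.21 ± 0.17 (SE, limma over 8 arrays, adjusted p = 0.889). The count was 10 in place of 17 without control mouse 1, and 15 or 16 without any other mouse.

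Other genes with large rises included Ptpn3, a protein tyrosine phosphatase. Its probe set of highest mean stood at 9.55 and 9.70 in controls and 11.16 and 11.08 in acupoint mice (1.50 ± 0.08, limma adjusted p = 0.00293). All 12 of its tested probe sets rose, by 0.94 to 1.80. MPTP-alone mice stood at 10.92 and 10.72 and hip-needled mice at 11.06 and 10.87, between the acupoint mice and the controls. Vipr2, a receptor for vasoactive intestinal peptide, and Adcy1, a calmodulin-activated adenylyl cyclase, rose 2.29-fold and 2.26-fold. Each of these 3 genes passed without each of the 4 mice.

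Zinc finger factors of the Zic family, which pattern the dorsal neural tube, were higher as well. They were chosen after their values were seen. Zic1 stood at 9.26 and 9.41 in controls and 10.45 and 10.54 in acupoint mice (1.16 ± 0.08, limma adjusted p = 0.00378), and Zic2 at 7.69 and 7.76 against 8.74 and 8.84 (1.07 ± 0.08, 0.00378). Zic4 rose by 0.86 ± 0.14, and of Zic5's 2 probe sets 1 rose (1.24 ± 0.18) and the other differed by 0.31. Zic1 stood at 9.80 and 9.70 in mice with MPTP alone and 9.77 and 9.99 in hip-needled mice, so the 2 acupoint mice were the highest of the 8. Acupoint minus MPTP alone was 0.75 ± 0.14 (SE, limma over 8 arrays, adjusted p = 0.889). Zic1 and Zic2 passed without each mouse, Zic4 lost its call without control mouse 1 or acupoint mouse 2 (adjusted p = 0.0997 and 0.0565), and Zic5 without control mouse 1 or control mouse 2 (0.0721 and 0.0818).

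Genes of the choroid plexus epithelium had the largest median of the lists, 1.32 (2.49-fold). Of 22 genes 19 were tested, Cldn2 lay below the brightness minimum, and Prlr and Enpp2 had no probe set of their own. Of the 19, 14 rose and none fell, and in all 19 both acupoint mice stood above both controls, against 5.43% and 30.5% of all genes tested. Of the 14, Steap1 and Calml4 reached the brightness minimum only through the acupoint arrays and had to differ. This epithelium lies in the ventricles and is not part of the thalamus, so the list's level follows how much of it a dissection held as well as its activity, and these cannot be told apart here.

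The starts of Kcnj13, the leading gene of the list, and Kl are shown. Among the list's genes named by rule that have a promoter in the table, Kcnj13 and Kl rose most. Kcnj13 is chr1:87394680-87394979 on the minus strand and Kl chr5:150952357-150952656 on the plus strand (RefSeq, GRCm38.p6). Of the 10 choroid plexus genes named by rule, 6 have a promoter in the table.
Kcnj13: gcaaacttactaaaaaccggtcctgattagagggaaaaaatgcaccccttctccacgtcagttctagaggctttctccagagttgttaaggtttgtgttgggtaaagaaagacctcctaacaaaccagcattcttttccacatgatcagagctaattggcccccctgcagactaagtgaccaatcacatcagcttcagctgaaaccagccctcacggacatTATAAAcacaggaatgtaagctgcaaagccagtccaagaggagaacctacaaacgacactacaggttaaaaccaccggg
Kl: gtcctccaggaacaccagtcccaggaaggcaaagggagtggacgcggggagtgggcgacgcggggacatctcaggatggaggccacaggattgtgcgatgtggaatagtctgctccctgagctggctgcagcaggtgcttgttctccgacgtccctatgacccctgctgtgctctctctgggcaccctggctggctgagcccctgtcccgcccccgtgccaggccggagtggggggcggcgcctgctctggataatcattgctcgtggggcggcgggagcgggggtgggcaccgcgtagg
The Kcnj13 start holds a TATA box motif, in capitals, that begins 29 bases before the start. The Kl start, rich in g and c, holds none of the 4 motifs in this window, and neither do those of Car12 and Steap1.

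Kcnj13, an inward rectifier potassium channel, stood at 7.50 and 7.56 in controls and 9.40 and 10.02 in acupoint mice, a 4.53-fold rise (2.18 ± 0.19, limma adjusted p = 0.00517). Ttr, the thyroid hormone carrier of cerebrospinal fluid, stood at 12.05 and 12.27 against 13.36 and 13.53 (1.29 ± 0.11, 0.00469). Folr1, the folate receptor, stood at 6.61 and 6.77 against 8.04 and 8.40 (1.53 ± 0.13, 0.00494). In these genes acupoint mouse 2 lay above mouse 1, and both lay above the controls. Clic6, an intracellular chloride channel protein, rose by 2.14 ± 0.30 and Kl, the hormone co-receptor klotho, by 2.03 ± 0.28. Sostdc1, a BMP antagonist (1.75), the carbonic anhydrase Car12 (1.74), Steap1 (1.72), coagulation factor F5 (1.71) and Calml4 (1.70) followed. Ecrg4, which is not on the list and is known as a choroid plexus gene, rose by 1.67 ± 0.16. The water channel Aqp1 (1.08), the bicarbonate transporter Slc4a5 (1.32), the tight junction gene Cldn1 (0.95) and Tmem72 (1.02) rose too, while the potassium channel subunit Kcne2 (2.30-fold higher, limma adjusted p = 0.0572) did not pass. Steap1, F5 and Calml4 had control levels between 4.52 and 5.24, under the brightness minimum, so the size of their rises is uncertain.

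The list mean stood at 6.49 and 6.55 in controls and at 7.61 and 8.15 in acupoint mice, against 8.27 and 8.17 with MPTP alone and 5.62 and 5.68 after hip needling. The 4 groups do not overlap, and the hip-needled mice are the lowest. Kcnj13 was 4.60 ± 0.35 higher in acupoint than in hip-needled mice (SE, limma over 8 arrays, adjusted p = 0.0522), no gene of that contrast having a smaller one. Acupoint minus MPTP alone was -0.89 ± 0.35 (0.889). The count against control was 7 in place of 14 without control mouse 1 and 12 without control mouse 2, and all 19 passed without acupoint mouse 1. Kcnj13, Ttr, Folr1, Aqp1, Slc4a5 and Cldn1 passed without each mouse, as did Calml4, which had to differ.

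**Figure D2:**
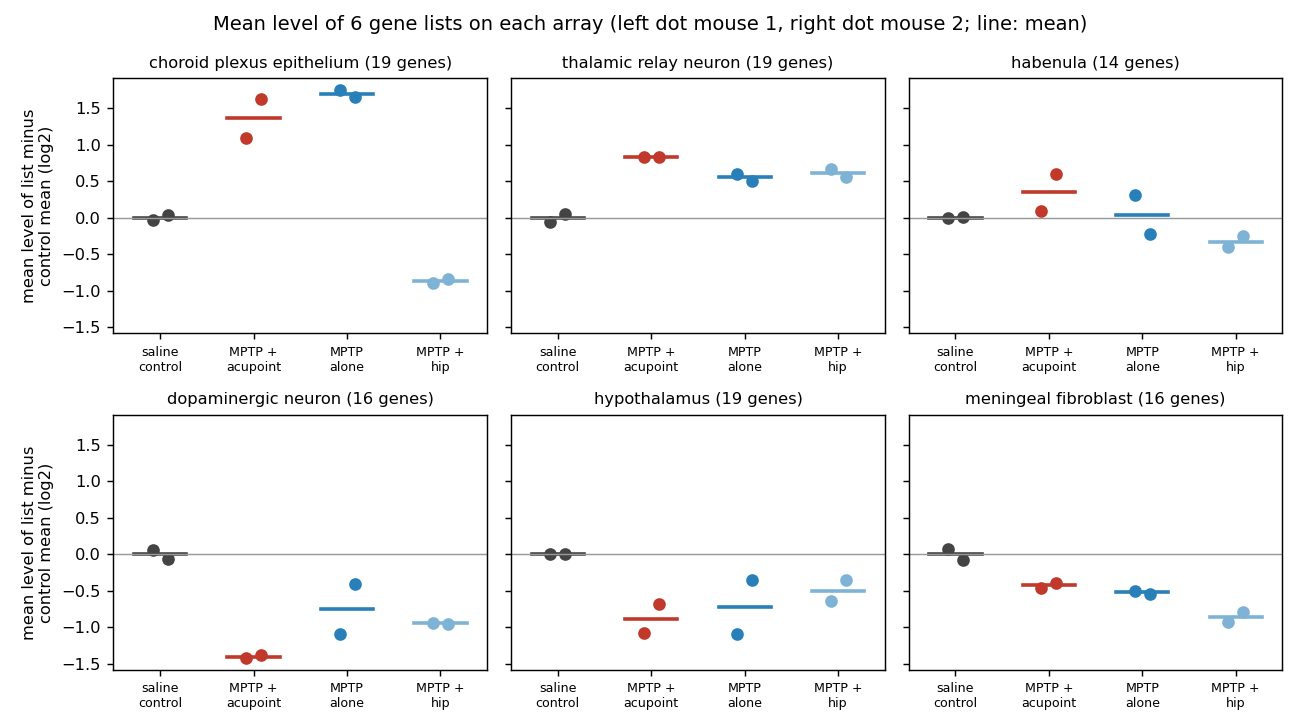
Mean log2 level of the tested genes of 6 lists on each of the 8 arrays, relative to the mean of the 2 controls (vertical axis, the same scale in all panels). The left dot is mouse 1, the right dot mouse 2 and the line the group mean; the choroid plexus panel has both acupoint mice above and both hip-needled mice below the controls, and the dopaminergic panel has the acupoint mice lowest.

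Ependymal cells, which line the ventricles with motile cilia, were followed by 14 genes, of which 9 were tested. All 9 were above 0 (median 0.51), and 2 rose, Tmem212, a gene of ciliated cells, (5.73 and 5.97 against 6.51 and 7.02; 0.91 ± 0.18) and the dynein light chain gene Dynlrb2 (0.76 ± 0.15). Both lost their calls without control mouse 1, control mouse 2 or acupoint mouse 2, and 5 passed without acupoint mouse 1. The control levels of Dynlrb2 (5.47 and 5.60) lie under the brightness minimum.

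Meningeal fibroblast genes went the other way, though meninges and choroid plexus both lie outside the brain tissue proper. Of 16 tested, 7 fell and none rose (median -0.33). Slc6a12, a betaine and GABA transporter, stood at 6.84 and 6.89 in controls and 5.89 and 5.76 in acupoint mice (-1.04 ± 0.08, limma adjusted p = 0.00417). The transporter genes Slc6a13 (-0.82), Slc22a6 (-0.69), Slc13a3 (-0.67) and Slc47a1 (-0.56), the retinoic acid enzyme gene Aldh1a2 (-0.84) and the matrix gene Fmod (-0.72) fell as well. The collagen genes Col1a1, Col1a2 and Col3a1 differed by -0.15, -0.14 and -0.31 without passing. Of the 7, Slc47a1 reached the brightness minimum only through the control arrays. The list mean stood at 7.33 and 7.18 in controls, 6.80 and 6.86 in acupoint mice, 6.76 and 6.72 with MPTP alone and 6.34 and 6.47 after hip needling. Slc6a12 alone passed without control mouse 1, and 4 genes did without acupoint mouse 2.

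Hypothalamic genes were the second group of falls. Of 24 genes 19 were tested, 10 fell and none rose, and the median was -0.49. Oxt, the hormone oxytocin, stood at 9.07 and 9.05 in controls and 6.98 and 7.55 in acupoint mice, 3.46-fold lower (-1.79 ± 0.18, limma adjusted p = 0.00591). Cartpt, a feeding-related peptide, stood at 8.97 and 8.93 against 7.04 and 7.34 (-1.75 ± 0.11, 0.00342). Avp, vasopressin, stood at 8.07 and 7.80 against 6.69 and 6.70 (-1.24 ± 0.10, 0.00469). The 2 groups lie well apart in each. Irs4, an insulin receptor substrate (-1.40), Hdc, the enzyme that makes histamine (-1.40), the calcitonin receptor Calcr (-1.04), the transcription factor genes Sim1 (-0.77) and Hmx3 (-0.47) and the hormone genes Ghrh (-0.49) and Trh (-0.48) also fell.

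Hcrt (orexin) and Pmch (melanin-concentrating hormone), peptides of the lateral hypothalamus, differed most of the list and did not pass, and the 2 acupoint mice were unlike each other. Hcrt stood at 8.94 and 9.16 in controls and 5.55 and 8.41 in acupoint mice (-2.07 ± 0.83, limma adjusted p = 0.173). Pmch stood at 10.14 and 10.18 against 6.61 and 9.58 (-2.06 ± 0.86, 0.186). Both peptides were low in acupoint mouse 1 and nearer the controls in mouse 2. Both passed when either acupoint mouse was left out, Hcrt with a limma adjusted p of 0.0466 without mouse 1 and 0.00299 without mouse 2, and Pmch with 0.0323 and 0.00113. In mice with MPTP alone Hcrt stood at 6.85 and 9.46, and after hip needling at 7.31 and 9.95, so in each injected group mouse 1 was the lower.

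The hypothalamic list mean was 7.36 and 7.37 in controls, 6.28 and 6.68 in acupoint mice, 6.27 and 7.02 with MPTP alone and 6.73 and 7.01 after hip needling. All injected mice were below the controls. Falls numbered 4 when control mouse 1 was left out, 6 for control mouse 2, 11 for acupoint mouse 1 and 9 for acupoint mouse 2, and Oxt, Cartpt, Avp and Calcr passed without each mouse.

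Neuropeptide and opioid genes partly share this list. Of 18 tested, 6 fell and 1 rose (median -0.38). Beside Cartpt, those that fell were neurotensin Nts (-1.39 ± 0.24), Nxph4, a neurexin ligand (-1.36 ± 0.16), PACAP Adcyap1 (-1.02 ± 0.13), gastrin-releasing peptide Grp (-0.85) and somatostatin Sst (-0.39). Cholecystokinin, Cck, which thalamic relay neurons express, rose by 0.66. The opioid precursor genes Penk (-0.97, groups overlapping) and Pdyn (-0.51) did not pass, nor did the mu receptor gene Oprm1 (0.10). The 6 falls and the rise came down to 1 and 0 without control mouse 1, and to 4 and 1 without control mouse 2. Gpx3, a secreted glutathione peroxidase (-1.43 ± 0.18), and Klhl1, a kelch-like gene (-1.42 ± 0.12), were among the 12 largest falls without being on any list. Gpx3 lost its call without control mouse 1 (limma adjusted p = 0.0663).

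In the habenula list the receptor gene Gpr151, a marker of habenular neurons, rose. It stood at 5.15 and 5.19 in controls and 7.14 and 7.91 in acupoint mice, 5.12-fold higher (2.35 ± 0.23, limma adjusted p = 0.00591). Its control levels lie under the brightness minimum and its mean over the 6 other arrays, 5.57, does too, so it was tested only because of its acupoint levels and had to differ, and the fold is uncertain. Gpr151 stood at 6.56 and 5.95 with MPTP alone and at 4.93 and 5.62 after hip needling, below both acupoint mice, and acupoint minus hip was 2.25 ± 0.35 (SE, limma over 8 arrays, adjusted p = 0.444).

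Of the 14 habenula genes tested 5 rose and none fell (median 0.45). Of the 5, Gpr151 and Htr5b reached the minimum only through the acupoint arrays. The nicotinic subunit Chrnb4 rose by 0.65, the serotonin receptor Htr5b by 0.64, the G protein subunit Gng8 by 0.56 and the calcium-binding protein gene Calb1 by 0.38. Chrna3, the partner of Chrnb4 in habenular nicotinic receptors, differed by 0.78 (limma adjusted p = 0.0855), and substance P precursor Tac1 by -1.24 (0.116). The list mean stood at 6.93 and 6.94 in controls and at 7.03 and 7.54 in acupoint mice. Acupoint mouse 1 was thus close to the controls and acupoint mouse 2 well above them. With MPTP alone the list mean was 7.25 and 6.71, and after hip needling 6.53 and 6.69. Leaving out control mouse 1 or control mouse 2 left Gpr151 as the call, leaving out acupoint mouse 2 left 1 rise and 1 fall, and leaving out acupoint mouse 1 gave 8 rises and 1 fall.

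Other neighbouring or projecting regions gave mixed results. By limma 0 of the 15 striatal genes tested passed (4 at an unadjusted p under 0.05, median -0.02), and the list mean was 7.98 and 8.09 in controls and 7.47 and 8.21 in acupoint mice, on both sides of the controls. As many as 8 of them fell without acupoint mouse 2, and 3 rose without acupoint mouse 1. Of 16 cortical and hippocampal genes, 5 fell and 4 rose. Those that rose were Prox1 (1.17 ± 0.09), a homeobox gene, the vesicular glutamate transporter Slc17a7 (1.16 ± 0.11), Camk2a (0.65) and Cux2 (0.50). Those that fell were Gabra5 (-0.65), Ccn2 (-0.62), Nrgn (-0.56), Nptx1 (-0.54) and Rprm (-0.50). Prox1 and Slc17a7, which the thalamus also expresses, passed without each mouse. There were 2 rises and no fall without control mouse 1, and 3 rises and 1 fall without control mouse 2. Of 13 genes of reticular and inhibitory neurons, 3 fell, namely the transcription factor gene Sox14 (-0.62), the GABA vesicle transporter Slc32a1 (-0.44) and Sst, while the GABA enzymes Gad1 (0.09) and Gad2 (-0.23) did not pass. None of these passed without control mouse 1 or control mouse 2, while 1 gene fell and 1 rose without acupoint mouse 1 and 4 fell without acupoint mouse 2.

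The levels of these neighbour lists therefore moved with the comparison, the choroid plexus list upward and the dopaminergic, hypothalamic and meningeal lists downward. The habenula list stood well above the controls in only 1 of the acupoint mice, mouse 2, and was above them in MPTP-alone mouse 1 too. Their part in each other's differences was not tested.

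**Figure D3:**
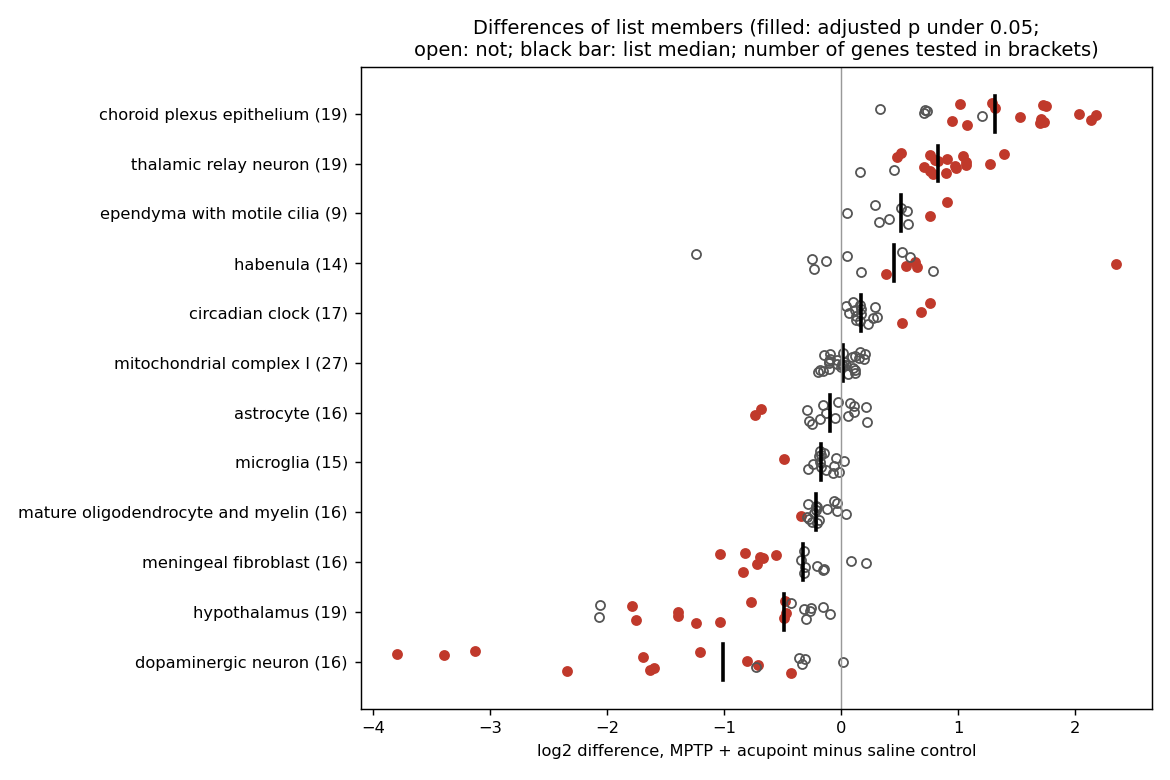
Log2 difference, acupoint minus control (horizontal axis), of each tested member of 12 lists; filled circles passed an adjusted p of 0.05, open circles did not, black bars are list medians and numbers in brackets are genes tested. Choroid plexus and relay neuron genes lie to the right (medians 1.32 and 0.83), dopaminergic genes reach furthest to the left (median -1.01) and complex I genes lie close to 0.

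Receptor and channel genes were followed because relay neurons depend on them. GABA receptor genes split by subunit. Of 13 tested, 4 rose and 3 fell (median -0.08). The delta and alpha 4 subunits, which form the extrasynaptic GABA-A receptors of thalamic relay neurons, rose together. Gabrd stood at 7.77 and 8.12 in controls and 9.09 and 9.09 in acupoint mice (1.14 ± 0.12), and Gabra4 at 9.84 and 9.83 against 10.87 and 10.90 (1.05 ± 0.07, limma adjusted p = 0.00344). The GABA-B subunit Gabbr2 (0.68) and Gabrb2 (0.38) rose as well. The theta and epsilon subunits fell, Gabrq from 7.23 and 7.15 to 5.93 and 6.27 (-1.09 ± 0.12) and Gabre from 6.20 and 6.10 to 5.24 and 5.26 (-0.90 ± 0.07), as did Gabra5 (-0.65 ± 0.08). Theta and epsilon are subunits known from the hypothalamus and monoamine nuclei. Without control mouse 1, 2 rose and 1 fell, and Gabrd and Gabra4 passed without each mouse, as did Gabre, which reached the brightness minimum only through the control arrays and had to differ. Gabrd was 7.60 and 8.81 with MPTP alone and 7.59 and 8.84 after hip needling, so mouse 1 of those groups was below the controls and mouse 2 above.

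Of 21 glutamate receptor genes 7 rose and none fell (median 0.10). Against the same controls the list medians were 0.19 for MPTP alone and 0.31 for hip-needled mice. The metabotropic receptor Grm4 rose by 0.92 ± 0.07 (7.87 and 7.82 against 8.75 and 8.78), and the NMDA receptor subunits Grin2a by 0.90 ± 0.07 (8.57 and 8.57 against 9.47 and 9.46) and Grin2b by 0.81 ± 0.08 (9.23 and 9.36 against 10.11 and 10.11). Grm2 (0.63), Grin2c (0.52), the AMPA receptor subunit Gria3 (0.49) and Grm7 (0.33) also rose. With MPTP alone and after hip needling Grin2a differed from controls by 1.07 and 1.05, more than in acupoint mice. Grm4 (0.80 and 0.73) and Grin2b (0.73 and 0.71) differed by less. The kainate receptor genes Grik1, Grik2, Grik3, Grik4 and Grik5 lay between -0.12 and 0.03, and none of them passed. The count was 3 without control mouse 1 and 4 without control mouse 2. Grm4, Grin2a and Grin2b passed without each mouse.

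Of 23 channel genes of the T-type calcium, HCN and potassium families, 10 rose and 1 fell (median 0.24). Against the same controls the list medians were 0.22 for MPTP alone and 0.25 for hip-needled mice. Kcnc2, a fast potassium channel, rose by 0.93 ± 0.08 (9.96 and 10.07 against 10.96 and 10.93), and Cacna1g is described above. Kcnj9, a G protein-gated potassium channel (0.80), and its partner Kcnj3 (0.56), the M-current channel Kcnq3 (0.73), the calcium-gated channels Kcnma1 (0.73) and Kcnn3 (0.43), Kcnd2 (0.68), Kcnc1 (0.50) and the pacemaker channel Hcn4 (0.40) rose too. Another T-type channel, Cacna1h, fell by 0.45, and the T-type channel of reticular neurons, Cacna1i, differed by -0.04. The T-type genes thus differed in direction from each other. Cacna1g and Kcnc2 were the 2 rises left without control mouse 1, and 6 were left without control mouse 2. Cacna1h lost its call whichever of the 4 mice was left out.

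**Figure D4:**
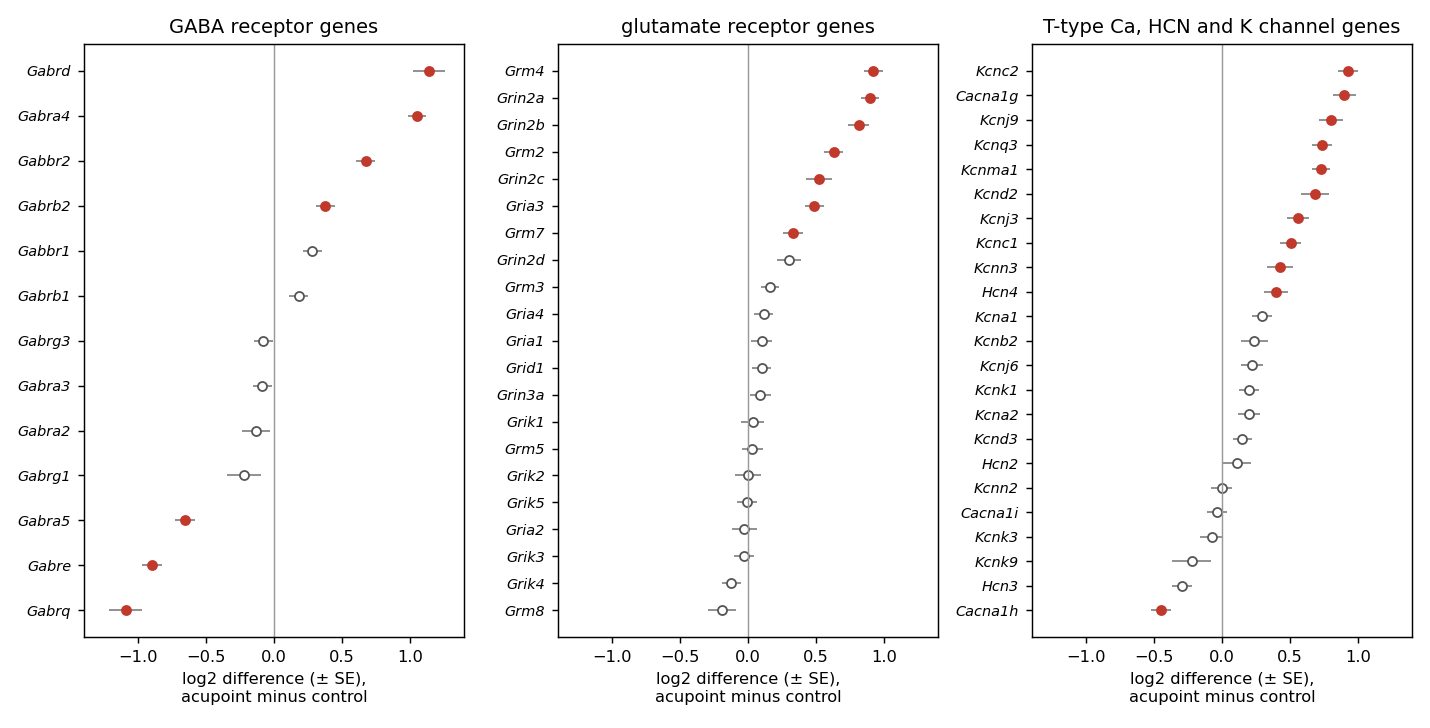
Log2 difference, acupoint minus control (horizontal axis, with SE as bars), of each tested GABA receptor, glutamate receptor and channel gene; filled circles passed an adjusted p of 0.05. Gabrd and Gabra4 lie at 1.14 and 1.05 and Gabrq and Gabre at -1.09 and -0.90, while glutamate receptor genes passed on the right side of 0 only.

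Of 15 dopamine and serotonin receptor genes 4 fell and 1 rose (median -0.23). All 5 are serotonin receptors. Htr2a stood at 8.02 and 7.81 in controls and 6.70 and 6.89 in acupoint mice (-1.12 ± 0.11, limma adjusted p = 0.00585), and Htr1a at 6.73 and 6.65 against 5.65 and 5.84 (-0.95 ± 0.09, 0.00584). Htr1d, which reached the brightness minimum only through the control arrays, fell by 0.66 and Htr4 by 0.56, and Htr7, which midline thalamic neurons express, rose by 0.55. The dopamine receptor genes Drd1 (-0.29), Drd3 (-0.01), Drd4 (-0.23) and Drd5 (0.06) did not pass. Without control mouse 1 or control mouse 2 the count was 2 falls, Htr2a and Htr1a, and no rise, without acupoint mouse 1 it was 2 falls and 1 rise, and without acupoint mouse 2 it was 7 falls and 1 rise.

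Glial lists showed few calls, and 1 call in a list of this size is near the shares of all genes tested (5.43% rose, 3.56% fell). Of 16 astrocyte genes 2 fell, both markers of reactive astrocytes. Other such markers on the list, Vim, Cd44 and C4b, did not pass (limma adjusted p = 0.863, 0.797 and 0.187). Lcn2 and Timp1 lay below the brightness minimum. Gfap stood at 9.25 and 9.05 in controls and 8.31 and 8.52 in acupoint mice (-0.74 ± 0.11, limma adjusted p = 0.0158), and Serpina3n at 8.57 and 8.20 against 7.69 and 7.70 (-0.69 ± 0.13, 0.0296). With MPTP alone and after hip needling Gfap differed from controls by -0.69 and -0.83, and Serpina3n by -0.04 and -0.008. The glutamate transporters of astrocytes, Slc1a2 (0.22) and Slc1a3 (0.11), did not pass. Of 15 microglia genes, P2ry12 alone fell (-0.48 ± 0.09), and Aif1, which encodes the microglial protein Iba1, differed by -0.07 ± 0.12 (limma adjusted p = 0.730, groups overlapping). In the microglia list 14 of the 15 lay below 0 (median -0.18). In 9 the groups did not overlap, lower in each, against 28.8% of all genes tested. Gfap lost its call without control mouse 1 (adjusted p = 0.0874). Serpina3n kept it without control mouse 2 only, and P2ry12 without acupoint mouse 1 only.

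Of 16 myelin genes Gjc3, a gap junction gene, fell (-0.35), and the other 15 did not pass (list median -0.21). All the same, 15 of the 16 lay below 0. In 12 the groups did not overlap, lower in each, against 28.8% of all genes tested. Of 12 oligodendrocyte precursor genes C1ql1 fell (-0.56) and Tnr rose (0.40). Of 15 endothelial and mural genes the smooth muscle genes Acta2 (-0.65) and Tagln (-0.42) and Vtn (-0.49) fell, and the blood-brain barrier transporters Slco1a4 (0.48) and Abcb1a (0.41) rose. Gjc3, C1ql1, Tnr, Tagln, Vtn and Abcb1a lost their calls whichever of the 4 mice was left out, and Acta2 and Slco1a4 kept theirs without acupoint mouse 2 only.

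Lists of cell stress and of parkinsonism had few or no calls. Of all genes tested 5.43% rose and 3.56% fell, so 0 calls in a small list, here or below, does not show that its genes kept their level. Over all probe sets tested 27.9% had an unadjusted p under 0.05, which is the background for the unadjusted counts here. By limma 0 of 21 heat shock and unfolded protein genes passed (8 at an unadjusted p under 0.05, median -0.18), though without acupoint mouse 2 7 fell. Of 13 glucocorticoid response genes 0 passed (3 unadjusted, median 0.03), with Fkbp5, a co-chaperone that glucocorticoids induce, at 0.57 (limma adjusted p = 0.0655), and without acupoint mouse 1 1 fell and without acupoint mouse 2 1 rose. Of 12 genes of Parkinson disease and monoamine breakdown 0 passed (2 unadjusted). Maob, the enzyme that converts MPTP to its toxic form, stood at 9.14 and 9.08 in controls and 9.46 and 9.84 in acupoint mice (0.54 ± 0.13, 0.0601), and without acupoint mouse 1 2 genes of this list rose. Complex I, the respiratory complex that the toxic ion inhibits, had 0 of 27 genes past the threshold by limma (2 unadjusted), a median of 0.02 and a range from -0.19 to 0.20.

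Of 17 antioxidant genes Gsta4 fell (-0.37), a call lost whichever of the 4 mice was left out. A count of 1 in 17 is near the 3.56% of all genes tested that fell. Of 16 ribosomal genes Rplp0 (-0.46) and Rps3 (-0.31) fell, and Rplp0 kept its call without acupoint mouse 2 only, Rps3 in no leave-out. Of the 16 ribosomal genes 15 lay below 0 (median -0.13). In 13 the groups did not overlap, lower in each, against 28.8% of all genes tested. By limma 0 of 10 cytokine and interferon genes passed (3 unadjusted, with 8 more genes below the brightness minimum), as did 0 of 9 apoptosis genes (3 unadjusted) and 0 of 2 erythrocyte genes (1 unadjusted).

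The immediate early and MAP kinase feedback lists had medians of 0.05 and 0.03, and the neurotrophic list one of -0.19. Each of the first 2 lists had 1 rise, near the 5.43% of all genes tested that rose. Of 18 immediate early genes Nptx2, a synaptic pentraxin, rose (0.76 ± 0.12), and Fos stood at 7.13 and 6.94 in controls and 6.79 and 6.98 in acupoint mice (-0.15 ± 0.10, limma adjusted p = 0.378). Of 12 MAP kinase feedback genes Etv1 rose (0.54), and Dusp1 differed by 0.49 and Dusp4 by 0.02. With MPTP alone and after hip needling Etv1 differed from controls by 1.10 and 1.00. Of 16 neurotrophic genes the receptors Gfra2 (-0.56) and Ntrk3 (-0.55) and midkine, Mdk (-0.34), fell, while Gdnf (-0.06) and Bdnf (-0.22) did not pass. In this list 12 of the 16 genes lay below 0. In 10 the groups lay apart with acupoint mice lower and in 2 with acupoint mice higher, against 28.8% and 30.5% of all genes tested. Nptx2 passed without control mouse 1 only. None of the 3 neurotrophic calls passed without control mouse 1 or control mouse 2, and the count was 2 without acupoint mouse 1 and 1 without acupoint mouse 2. Etv1 has 2 probe sets, and both passed. That of 0.54 lost its call without control mouse 1 or control mouse 2 (limma adjusted p = 0.0835 and 0.0759), and that of 0.77 passed without each mouse. Without acupoint mouse 1, 2 genes of the MAP kinase feedback list rose.

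Circadian clock genes were above 0 in all 17 genes tested, by small amounts (median 0.17), and in 14 the groups did not overlap, against 30.5% of all genes tested. Against the same controls the list medians were 0.29 for MPTP alone and 0.28 for hip-needled mice. Rorb, a nuclear receptor that sensory thalamus also expresses, rose by 0.76 ± 0.07 (8.41 and 8.40 against 9.14 and 9.19), the PAR bZIP factor Hlf by 0.68 ± 0.10 and Bhlhe40 by 0.52. The core clock genes Per1 (0.29), Per2 (0.04), Cry1 (0.28), Arntl (0.23) and Clock (0.12) did not pass. Rorb passed without each mouse, and without control mouse 1 or control mouse 2 it was the list's only call. The labels give no time of day for sampling.

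**Figure D5:**
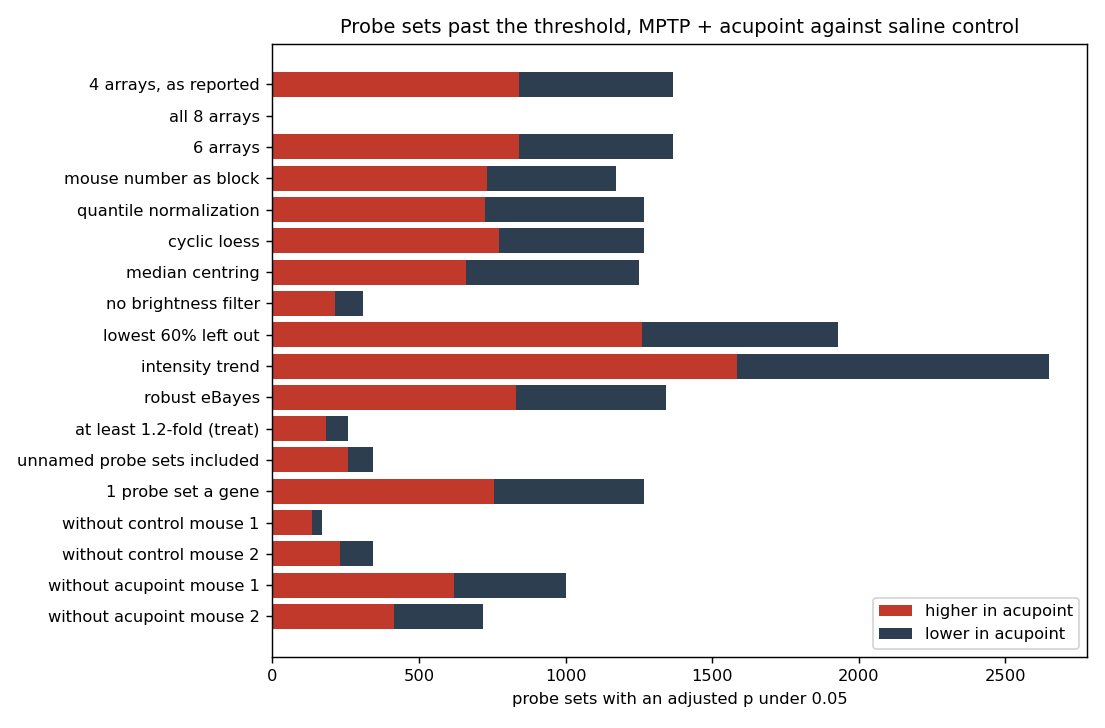
Number of probe sets with an adjusted p under 0.05 (horizontal axis), acupoint against control, under the reported analysis and each alternative listed in the methods; red is higher and dark blue lower in acupoint mice. The reported bar is 1365, the bar for all 8 arrays is 0, and the bars without control mouse 1 and control mouse 2 are 170 and 343.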

How the data were processed

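Each mouse's thalamic RNA (300 ng, per the labels) was hybridised to its own Affymetrix whole-transcript array. The authors deposited log2 levels made with RMA in Affymetrix Expression Console, as the submitters' processing notes say. The sources used here do not give tool versions. RMA draws arrays towards a common distribution and compresses differences of dim probe sets. Array medians lay between 6.18 and 6.29, and the number of arrays limits the precision.

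Genes were named from the platform annotation, updated through Entrez identifiers to RefSeq symbols of GRCm38.p6 (21698 of 21789 probe sets with 1 symbol matched). Another 1621 probe sets had several symbols and were tested but not named, and 12147 had none and were left out. The 40% with the lowest mean over the 8 arrays were left out too, which left 15791. Tests were run in R 4.3.3 with limma 3.58.1 (lmFit and eBayes, two-sided, Benjamini-Hochberg, adjusted p under 0.05) on the 4 arrays compared, with 2 residual and 4.01 prior degrees of freedom, because the spread within the other groups is larger. Contrasts with MPTP alone and hip needling used all 8 arrays. The p-values and SEs rest on the spread between 2 mice a group, drawn towards a spread shared over all probe sets, which has the larger weight (4.01 against 2 degrees of freedom). They do not measure a gene's own spread alone. These groups were chosen partly because the spread between their mice is small. The procedure was run on simulated data with planted shifts and independent noise of the spread of these 4 arrays. That run cannot show whether the calls would hold in other mice.

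The 34 gene lists hold 605 symbols, of which 500 were tested, with 1 probe set a gene, that of highest mean. They are described by counts and medians. Genes named are the 12 highest and 12 lowest past the threshold whose groups do not overlap, up to 4 members of largest difference per list, and 15 fixed genes, not all of which are reported here. Predicted genes, RIKEN clones, olfactory and vomeronasal receptors and probe sets of several genes were passed over. Zic genes, Vipr2, Adcy1, all probe sets of Ptpn3, other list members and the Th, Slc6a3 and Prkcd promoters were chosen after their values were seen. The members, lists and tests were chosen with earlier results of these data known.

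Alternatives were all 8 arrays, 6 arrays, the mouse number as a block, quantile normalization, cyclic loess, median centring, other brightness filters, an intensity trend, a robust prior, a minimum of 1.2-fold, unnamed probe sets included, 1 probe set a gene and leaving out each mouse.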

Additional observations from a re-analysis of the deposited data

Results flagged for a closer look

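Probe sets without a gene name were not part of the comparison. When they were included, 63 of 5543 of them passed an adjusted p of 0.05 (limma with Benjamini-Hochberg adjustment, 1.14%), 48 higher and 15 lower in acupoint mice than in controls. What they measure is not named here. Groups of 2 arrays are too small to test a sample for standing apart in a gene.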

How the results depend on the processing

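The count of probe sets past the threshold depended on the analysis. Against the reported 1365 (842 higher, 523 lower) it was 0, 0 and 0 with all 8 arrays, 308 (212, 96) without a brightness filter, 1931 (1259, 672) with the lowest 60% left out, 2648 (1585, 1063) with an intensity trend, 256 (183, 73) for at least 1.2-fold, and 343 (257, 86) with unnamed probe sets included. Leaving out a mouse gave 170 to 1002 (136 to 620 higher, 34 to 382 lower). The mice share only a number in their titles. With the mouse number as a replicate block the count was 1173 (732, 441), and because the difference between mouse 2 and mouse 1 correlated at r = -0.159 between the groups, the crossed pairing was added after the data were seen and gave 1996 (1140, 856). The other alternatives stayed within 1.5 times of the reported counts. The 6-array fit gave the same 1365, which was fixed in advance. Its MPTP-alone and hip groups hold 1 array each and add nothing to the spread. All of the 1365 that an alternative tested kept their direction in it. Apart from the other normalizations, the alternatives return the same difference or drop a mouse. Direction was then fixed in advance wherever the groups do not overlap, and it is no test of the calls. Of the 100 named genes 97 passed, 0 of these with all 8 arrays and 38 without each of the 4 mice, and Aif1, which did not pass, had the other sign with cyclic loess (0.0080) and in a range from -0.23 to 0.088 without a mouse. Acupoint against MPTP alone gave 3 calls and acupoint against hip 21 with 6 arrays, 0 with the replicate block, and 0 or 0 to 1 when a mouse was left out. All leave-outs of a group of 2, and the 6-array fits of these 2 contrasts, assume that the lone mouse varies like the others. Signal near background limits the genes whose lower level lies under 5.63.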
